A study of Mus musculus with 15 samples.

Results

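Chemokine ligands are secreted proteins that attract leukocytes, and this report describes their genes in the small intestine of mice at embryonic day E16.5. Members were the genes whose symbol is Ccl or Cxcl followed by a number and at most 1 letter, together with Cx3cl1, Xcl1 and Pf4, with 10 or more counts in at least 5 libraries. The files list 41 such genes among 36528 gene IDs, and 22 of the 41 reached that minimum.

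The series holds 15 RNA-seq libraries, 5 of each of 3 genotypes, and all 15 came from embryos without Mlkl. The groups are called wildtype (wildtype Casp8 on the Mlkl knockout), knockout (Casp8 knockout, Mlkl knockout) and C362A (Casp8 C362A knockin, Mlkl knockout). Casp8 encodes caspase-8, a protease that starts apoptosis and restrains necroptosis, and Mlkl encodes the pore-forming executor of necroptosis. C362A replaces the catalytic cysteine of caspase-8, so the protein is made but cannot cleave. The labels describe the C362A tissue as inflamed and the other tissue as normal, and name no litter, sex, library batch or replicate. Libraries therefore carry numbers 1 to 5 within a group only as names, no Mlkl-sufficient group enters any comparison, and p-values measure the spread between these libraries.

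Chemokines bind G protein-coupled receptors on leukocytes. Inflammatory members are switched on by interferon and NF-kB signals, as Cxcl10 is by interferon, while homeostatic members such as Cxcl12 and Cxcl13 guide cells during development. In the intestine, Ccl25 from the epithelium draws lymphocytes through CCR9. In whole tissue, fewer cells of a type and less RNA per cell cannot be told apart.

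Total counts ran from 31896399 to 38532127 per library. Casp8 stood at 70.1 ± 5.97 CPM (counts scaled to an equal library total; mean ± SD, n = 5) in the wildtype, 14.4 ± 1.65 in the knockout and 69.9 ± 3.41 in the C362A libraries, so the knockout label is visible in the counts while the C362A substitution cannot be seen in them. Summed Y-linked transcripts were over 10 CPM in 4 of 5 wildtype, 4 of 5 knockout and 2 of 5 C362A libraries. All 12 intestinal epithelium markers had counts. C362A library 5 stood apart from the other C362A libraries in the summed level of those markers, at 11688 CPM against 7625 to 8551. In C362A library 4, 7 squamous epithelium markers summed to 171 CPM, against 4.13 to 9.17 in the other libraries.

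The upstream sequences of Cxcl10 and Ccl12 are shown first, because these were the members that passed the test between genotypes. Both are the 250 bases before the start of the gene in RefSeq (GRCm38.p6), written 5′ to 3′ on the gene's strand. Capitals mark matches to 4 motifs searched on both strands: the interferon-stimulated response element (ISRE: TTTC, any 2 bases, TTTC), the STAT site GAS (TTCNNNGAA), the NF-kB consensus and the AP-1 site (TGANTCA).
Cxcl10, chr5:92348890-92349139, minus strand: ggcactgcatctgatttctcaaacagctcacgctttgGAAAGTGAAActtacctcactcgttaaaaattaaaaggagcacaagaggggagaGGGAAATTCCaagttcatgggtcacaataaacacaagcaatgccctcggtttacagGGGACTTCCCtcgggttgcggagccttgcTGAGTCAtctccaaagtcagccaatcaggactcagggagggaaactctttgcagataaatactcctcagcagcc
Ccl12, chr11:82101595-82101844, plus strand: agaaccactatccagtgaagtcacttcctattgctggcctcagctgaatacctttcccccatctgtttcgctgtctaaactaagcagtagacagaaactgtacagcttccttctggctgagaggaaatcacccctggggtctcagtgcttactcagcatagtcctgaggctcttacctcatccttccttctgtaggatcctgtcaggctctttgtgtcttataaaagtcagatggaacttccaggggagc
The Cxcl10 window holds an ISRE match from -213 to -204, NF-kB matches from -159 to -150 and from -103 to -94, and an AP-1 match from -74 to -68, counted from the start. The Ccl12 window holds no match to these letters. Among 32851 windows of the same length, an ISRE match is in 2.98%, a GAS match in 7.02%, an NF-kB match in 3.90% and an AP-1 match in 6.75%. The RefSeq table has an entry for 16 of the 22 members. Among those 16, the ISRE was also found in Cxcl14, the NF-kB consensus also in Ccl20 and Ccl9 and the AP-1 site also in Ccl27a and Ccl9, and a GAS match was in Cxcl14. A match is a description of the letters and shows no binding.

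Levels of different genes are compared by the deposited RPKM, which is per length. By the mean over all genotypes, Ccl25 was the most abundant member at a mean of 67.2 RPKM over the 15 libraries, followed by the eosinophil attractant Ccl11 at 57.1, the membrane-bound chemokine Cx3cl1 (fractalkine) at 29.4, the B cell attractant Cxcl13 at 26.7, Cxcl12 at 16.7, Ccl9 at 12.7 and the platelet factor Pf4 at 10.3. A middle group of 9 members lay between 1 and 10 RPKM: Ccl24 at 7.81, Ccl6 at 7.21, Cxcl16 at 5.61, Cxcl14 at 3.38, Ccl2 at 2.16, Cxcl10 at 2.07, Ccl20 at 1.79, Ccl12 at 1.46 and Ccl5 at 1.42. The 6 lowest were Xcl1 at 0.919, Ccl7 at 0.655, Ccl28 at 0.645, Ccl27a at 0.329, Cxcl9 at 0.136 and Cxcl15 at 0.131. Neighbours in this order overlapped in their ranges over libraries, as Ccl25 (48.1 to 86.2) and Ccl11 (43.4 to 90.2) did at the top and Cxcl9 (0.0188 to 0.410) and Cxcl15 (0.0575 to 0.261) at the bottom, except that every value of Ccl11 was above every value of Cx3cl1 (20.5 to 42.4). In C362A the top ranks differed, with Ccl11 at a mean of 67.1 RPKM above Ccl25 at 55.3, and Cxcl13 at 32.9 above Cx3cl1 at 25.0. The position of Cxcl10 among the 22 was the 17th in the wildtype, the 14th in the knockout and the 11th in the C362A libraries, and that of Ccl12 the 18th, the 15th and the 14th.

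**Figure D1:**
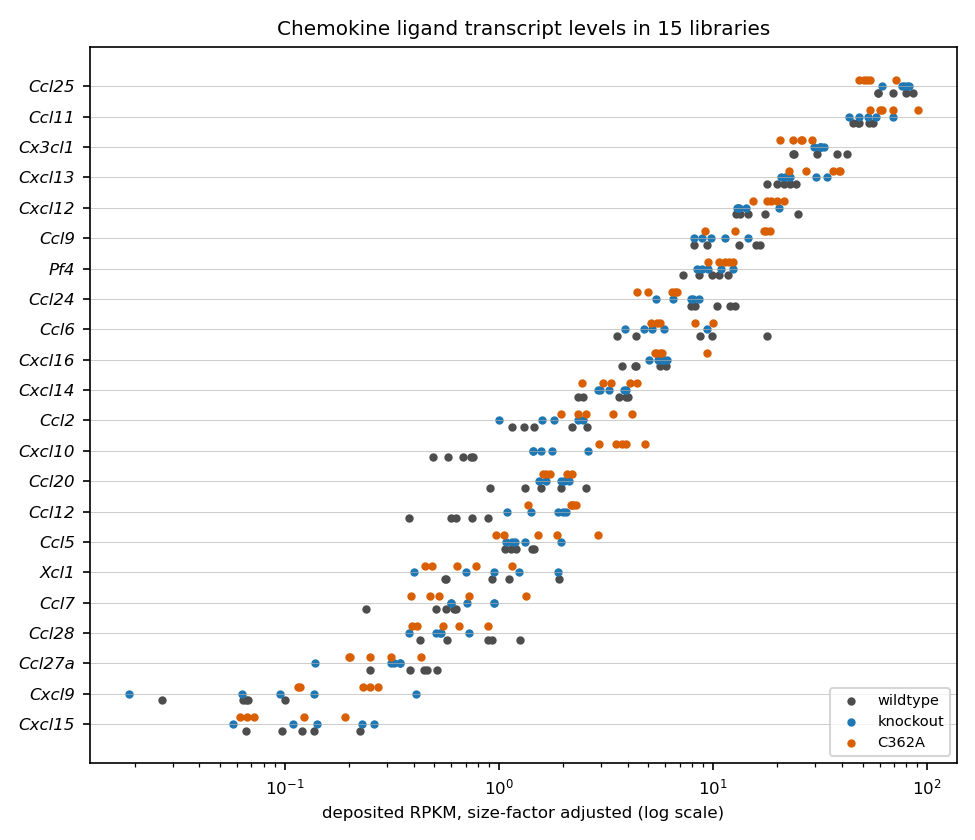
Deposited RPKM of the 22 members, 1 point per library, on a log axis, with members ordered by their mean. Cxcl10 and Ccl12 are the members whose wildtype points all lie below the points of both other genotypes.

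Together the 22 members took 0.0502% to 0.0581% of each library's counts. Their summed level was 486 to 605 CPM in the wildtype, 508 to 564 in the knockout and 530 to 567 in the C362A libraries, so the total overlapped between genotypes. Ccl25, Ccl11, Cx3cl1 and Cxcl12 made up 69.3% to 80.2% of the members' counts.

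The other 19 listed genes stayed under the minimum. Ccl19, Ccl21a, Ccl21c and Ccl21d had no count in any library. The Ccl19, Ccl21 and Ccl27 genes have near-identical copies in the genome and only uniquely aligned reads were counted, so their counts are uncertain, that of the member Ccl27a included. Among the neutrophil attractants that bind CXCR2, the highest count in any library was 16 for Cxcl2, 10 for Cxcl5, 9 for Cxcl3 and 8 for Cxcl1. Ccl4 reached at most 21 counts and Ccl3, a macrophage attractant like it, 15. The remaining genes, Ccl1, Ccl8, Ccl17, Ccl21b, Ccl22, Ccl26, Ccl27b, Cxcl11 and Cxcl17, had between 1 and 7 counts in their highest library. Around the minimum, Ccl3 had 10 or more counts in 4 libraries and stayed out, while Cxcl15 with 6 libraries and Cxcl9 with 9 were kept. Cxcl9 was kept only through the C362A libraries, each of which had 10 or more counts of it.

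Compared with the wildtype, Cxcl10 and Ccl12 were higher in the C362A intestine, and no member fell past the test. The test was edgeR's quasi-likelihood test on the counts of 18370 genes, with p-values adjusted over all of them and called under 0.05. It called 2 of the 22 members higher and 0 lower, against 0.0817% of all genes tested called, each of those higher. Without adjustment, 7 members had a p under 0.05 and were higher (8.08% of all genes) and 3 lower (7.8%). The groups did not overlap for 3 members higher in C362A (0.86% of all genes) and 1 lower (0.299%). The 3 were Cxcl10, Ccl12 and Cxcl9. Cxcl9 reached the count minimum only through the C362A libraries, so the selection itself favoured its place among the higher members. The median log2 fold change was 0.19 over the members, with 14 of 22 above 0, and 0.01 over all genes tested, with 51.4% above 0.

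In the knockout against the wildtype, Cxcl10 was called higher and no other member was called, against 0.0272% of all genes called higher. Counting both directions, 0.0381% of all genes were called. Without adjustment, 2 members had a p under 0.05 and were higher (1.2% of all genes) and 2 were lower (1.23%). Groups did not overlap for Cxcl10 and Ccl12, both higher in the knockout (0.37% of all genes), and for no member in the lower direction (0.332%). DESeq2 called both Cxcl10 and Ccl12 there, against 0.0708% of all genes. Between C362A and knockout no member was called by edgeR, against 0.0109% of all genes. Without adjustment, 5 had a p under 0.05 and were higher in C362A (6.49%) and 2 were lower (7.41%). Groups did not overlap for 1 member higher in C362A, Cxcl10 (1.11% of all genes), and 1 lower, Cx3cl1 (1.74%). DESeq2 called 1 member there, Cxcl10, against 0.142% of all genes, and limma-voom also called Cxcl10. Each pair of these comparisons shares a group of libraries, so their values are given side by side only.

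**Figure D2:**
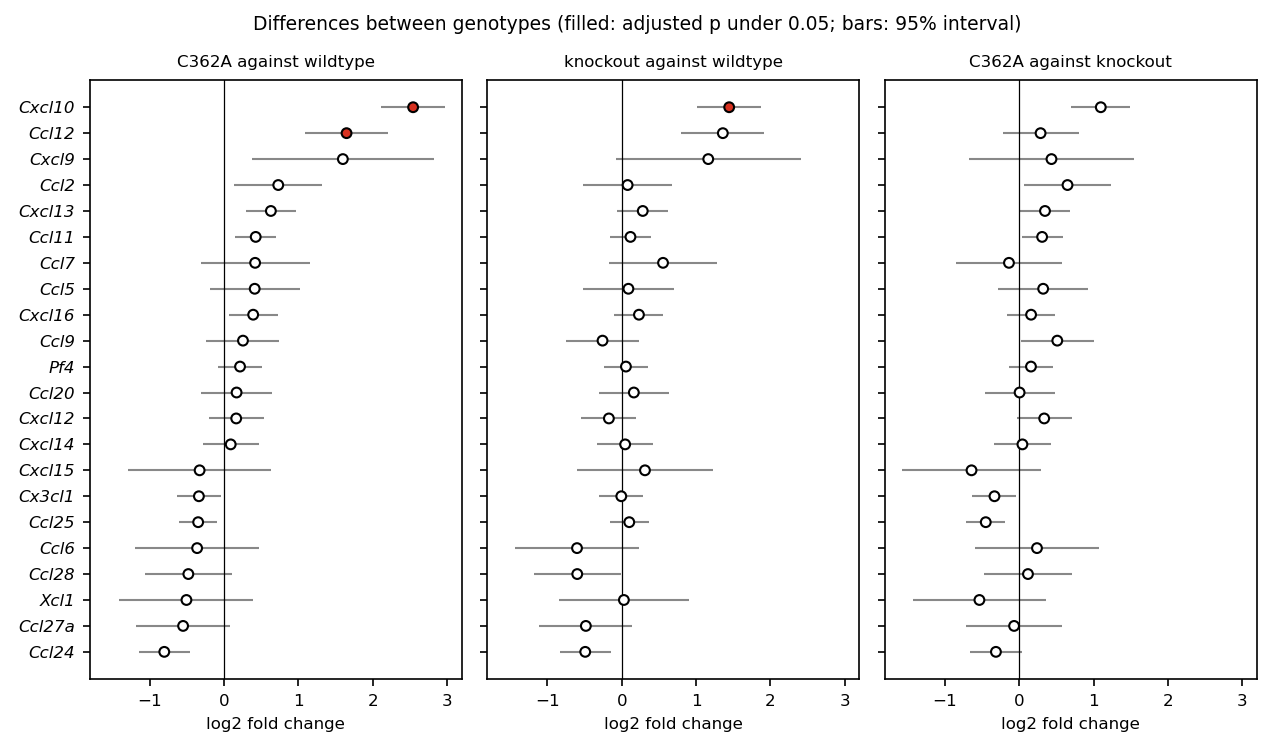
Log2 fold change of each member in the 3 comparisons, with its 95% interval from the edgeR fit; filled points have an adjusted p under 0.05. Cxcl10 and Ccl12 are filled in C362A against wildtype and Cxcl10 in knockout against wildtype, and no point is filled in C362A against knockout.

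Cxcl10, an attractant of T and NK cells through CXCR3, had the largest fold change among the members in each of the 3 comparisons. In the wildtype libraries 1 to 5 it stood at 0.839, 0.768, 0.655, 0.850 and 0.560 CPM. In the knockout it stood at 1.63, 2.01, 2.94, 1.62 and 1.80 CPM, and in C362A at 5.42, 4.0, 4.45, 4.23 and 3.36 CPM. Every knockout library was above every wildtype library and every C362A library above every knockout library. Of 18370 genes tested, 2 had this order without overlap (0.0109%), Cxcl10 and the macrophage transcription factor gene Spic, which was named after its values were seen. The wildtype values rest on 21 to 29 counts per library, the knockout values on 52 to 111 and the C362A values on 112 to 174.

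Cxcl10 was 5.83-fold higher in C362A than in the wildtype, a log2 fold change of 2.54 (SE 0.20, 95% interval 2.12 to 2.97, adjusted p = 7.96e-06, edgeR). In the knockout it was 2.73-fold higher than in the wildtype (log2 1.45, SE 0.20, interval 1.02 to 1.87, adjusted p = 0.0143). The difference between C362A and knockout was 1.10 on the log2 scale (SE 0.19, interval 0.70 to 1.49) with an adjusted p of 0.110 by edgeR, which missed the threshold. DESeq2 and limma-voom passed that difference, with adjusted p of 0.000288 and 0.0385. Without wildtype library 3 the adjusted p of knockout against wildtype was 0.0564. An exon of Art3 on the opposite strand shares 133 of the 2252 exonic bases of Cxcl10 in GENCODE, and the library kit does not mark strand. Art3 itself stood at means of 2.23, 2.35 and 2.33 CPM in the wildtype, knockout and C362A libraries.

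The sample ID numbers in the labels are consecutive, without a gap. Along them the order C362A, wildtype, knockout comes first with 2 and then with 3 libraries of each genotype. They were split here into 2 runs where that order repeats, and the labels do not name this split. Within those runs, the log2 ratio of mean Cxcl10 CPM was 2.3 and 2.69 for C362A against wildtype, 1.35 and 1.51 for knockout against wildtype and 0.95 and 1.19 for C362A against knockout. For Ccl12 the ratios were 1.79 and 1.57 for C362A against wildtype and 0.98 and 1.58 for knockout against wildtype, while C362A against knockout gave 0.81 in one run and -0.01 in the other. The other ratios of Cxcl10 and Ccl12 given here have the sign found over all libraries. Some ratios of other members changed sign between the runs. For C362A against wildtype, Ccl6 gave 0.42 and -0.62, while Ccl24 gave -0.68 and -0.88 and Cxcl13 0.41 and 0.74. For knockout against wildtype, Ccl2 gave -0.41 and 0.37 and Ccl6 0.49 and -1.02, while Cxcl13 gave 0.21 and 0.32.

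Cxcl9, the neighbour of Cxcl10 on chromosome 5 (chr5:92321331-92328079, Cxcl10 at chr5:92346638-92348889) and a ligand of the same receptor, was scarce. It stood at 0.202, 0.192, 0.298, 0.196 and 0.080 CPM in the wildtype, at 0.056, 0.408, 1.22, 0.187 and 0.286 in the knockout and at 0.342, 0.352, 0.811, 0.695 and 0.749 in C362A. All C362A libraries were above all wildtype libraries, while knockout library 3 alone was above every library of the other genotypes. The same C362A libraries brought Cxcl9 over the count minimum. The log2 fold change of C362A against wildtype was 1.60 (SE 0.58, interval 0.37 to 2.82) and missed the threshold (adjusted p = 0.285, edgeR). That of knockout against wildtype was 1.17 (SE 0.59), and 0.29 without knockout library 3. The third ligand of CXCR3, Cxcl11, which RefSeq lists as a transcribed pseudogene in this reference, had at most 2 counts in a library.

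Ccl12 is a monocyte attractant through CCR2 and lies with Ccl2, Ccl7, Ccl11 and Ccl8 on chromosome 11, between chr11:82035577-82037452 for Ccl2 and chr11:82115185-82116799 for Ccl8. In the wildtype libraries it stood at 0.492, 0.411, 0.208, 0.327 and 0.346 CPM. In the knockout it stood at 1.10, 0.598, 1.03, 1.12 and 0.781 CPM, and in C362A at 1.21, 1.22, 1.26, 0.753 and 1.20 CPM. Every library of both mutant genotypes was above every wildtype library, and the mutant genotypes overlapped each other.

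Ccl12 was 3.13-fold higher in C362A than in the wildtype (log2 1.65, SE 0.26, interval 1.09 to 2.20, adjusted p = 0.0145, edgeR). In the knockout the log2 fold change was 1.36 (SE 0.26, interval 0.80 to 1.92), with an adjusted p of 0.157 by edgeR and 0.0177 by DESeq2. Between C362A and knockout it was 0.29 (SE 0.24, interval -0.23 to 0.80, adjusted p = 0.590). The call in C362A was lost without C362A library 2 or 3 or wildtype library 4 or 5, with adjusted p of up to 0.0704, and the adjusted p was 0.0633 with Y-linked expression as a covariate. An unnamed gene ID carries counts identical to those of Ccl12 throughout, so the 2 IDs cannot be told apart.

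The other CCR2 ligands were higher in mean in C362A and overlapped with the wildtype. Ccl2, the main monocyte attractant, stood at 2.14, 1.21, 0.952, 1.08 and 1.81 CPM in the wildtype, at 1.32, 1.5, 2.04, 1.93 and 0.833 in the knockout and at 3.46, 1.95, 2.83, 2.11 and 1.62 in C362A. In C362A, 2 of 5 libraries exceeded every wildtype library, and the log2 fold change was 0.73 (SE 0.28, adjusted p = 0.285, edgeR). Ccl7 lay between 0.196 and 0.520 CPM in the wildtype, 0.490 and 0.786 in the knockout and 0.318 and 1.11 in C362A, where library 5 was the highest. Its log2 fold change of C362A against wildtype was 0.42 (SE 0.35), and 0.03 without that library.

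**Figure D3:**
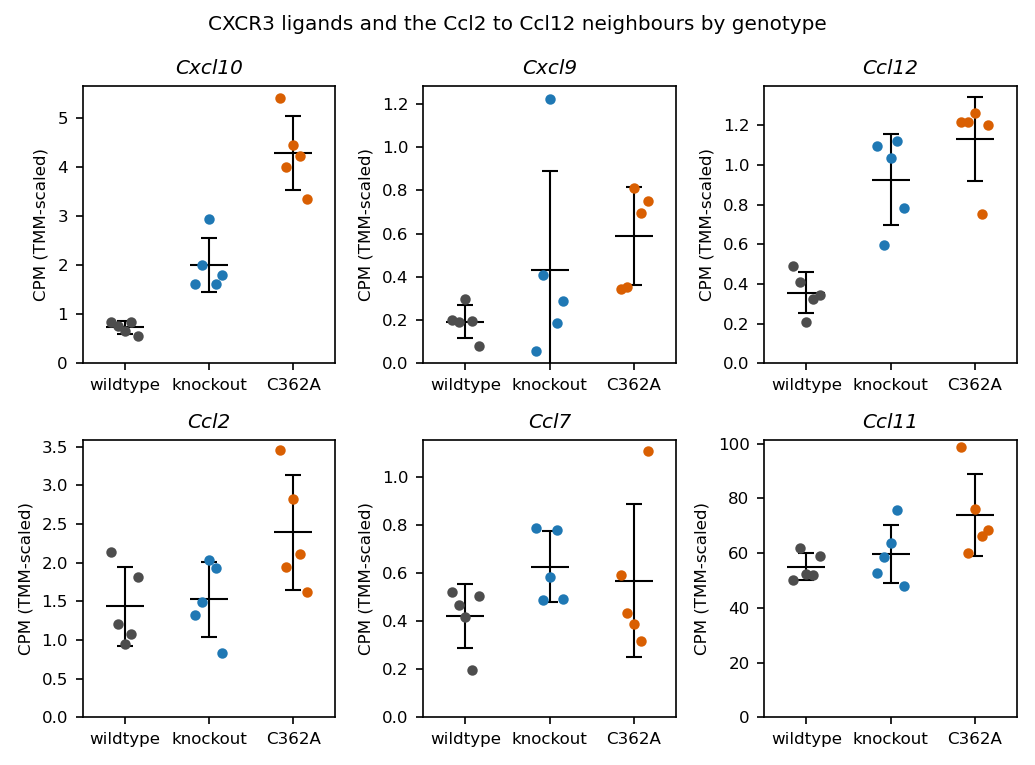
TMM-scaled CPM of Cxcl10, Cxcl9, Ccl12, Ccl2, Ccl7 and Ccl11 by genotype, 1 point per library, with the mean and SD of 5 libraries; the SD bar of Cxcl9 in the knockout is cut at 0. The groups separate in steps for Cxcl10, both mutant groups lie above the wildtype for Ccl12, and the groups overlap for Ccl2, Ccl7 and Ccl11.

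The CCR3 ligands, which attract eosinophils, differed in sign. Ccl24 stood at 11.1, 16.9, 14.7, 17.7 and 11.6 CPM in the wildtype, at 11.3, 9.11, 11.1, 12.1 and 7.63 in the knockout and at 9.34, 9.11, 9.53, 6.20 and 7.01 in C362A. All C362A libraries were below all wildtype libraries, and the knockout overlapped both. The log2 fold change of C362A against wildtype was -0.81 (SE 0.16, interval -1.15 to -0.46) with an adjusted p of 0.107 by edgeR. DESeq2, which called 0.294% of all genes in this comparison, gave 0.00236, and edgeR without C362A library 5 gave 0.0230. The knockout difference was -0.49 (SE 0.16, unadjusted p = 0.00744), not called after adjustment.

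Ccl11 stood at 50.0, 61.7, 52.5, 52.1 and 58.8 CPM in the wildtype, at 52.9, 58.5, 63.6, 75.7 and 48.1 in the knockout and at 98.8, 59.9, 76.0, 66.4 and 68.5 in C362A. In C362A, 4 of 5 libraries were above every wildtype library. The log2 fold change was 0.42 (SE 0.13, interval 0.15 to 0.70, adjusted p = 0.285, edgeR).

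Among a group of CC chemokines that attract monocytes and T cells, none of Ccl5, Ccl6 and Ccl9 was called, and their log2 fold changes of C362A against wildtype ran from -0.36 for Ccl6 to 0.41 for Ccl5. Without wildtype library 4 that of Ccl6 was 0.04, and without C362A library 2 that of Ccl5 was 0.11. Ccl9 stood at 28.9, 40.9, 25.2, 48.7 and 51.1 CPM in the wildtype, at 27.5, 30.1, 44.9, 35.1 and 25.3 in the knockout and at 56.5, 39.2, 54.7, 53.4 and 28.6 in C362A. Its difference between C362A and knockout was 0.51 (SE 0.23, adjusted p = 0.347), with 3 of 5 C362A libraries above every knockout library. Those 3 are the C362A libraries with the higher sample ID numbers. Ccl9 split by that run in C362A (28.6 to 39.2 against 53.4 to 56.5 CPM) and in the wildtype (25.2 to 28.9 against 40.9 to 51.1). In the knockout the runs overlapped. The log2 ratios of C362A against knockout within the runs were 0.29 and 0.61.

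Ccl5 stood at 0.781, 0.795, 0.655, 0.621 and 0.586 CPM in the wildtype, at 0.590, 0.653, 1.06, 0.623 and 0.729 in the knockout and at 0.529, 1.60, 1.02, 0.579 and 0.839 in C362A. C362A library 2 was the highest of the 15, and 2 C362A libraries were below every wildtype library. Ccl6 ranged from 5.26 to 26.2 CPM within the wildtype, a span that covered the C362A libraries (7.61 to 14.7) and the knockout libraries (5.67 to 13.8).

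The epithelial CC chemokines were led by Ccl25. It stood at 112, 132, 151, 163 and 112 CPM in the wildtype, at 148, 145, 156, 151 and 118 in the knockout and at 90.8, 99.8, 102, 96.4 and 136 in C362A. In C362A, 4 of 5 libraries were below every wildtype and every knockout library, and library 5 lay inside their range. The log2 fold change was -0.35 against the wildtype (SE 0.12, adjusted p = 0.285, edgeR) and -0.45 against the knockout (SE 0.12, adjusted p = 0.317). Without C362A library 5 both passed, at -0.46 (adjusted p = 0.0273) and -0.56 (adjusted p = 0.0383). In those fits, 9.76% of all genes tested were called against the wildtype and 4.35% against the knockout, and the count of members called rose to 5 (Ccl12, Cxcl10 and Cxcl13 higher, Ccl24 and Ccl25 lower) and to 2 (Cxcl10 higher, Ccl25 lower). Elavl1 on the opposite strand shares 204 exonic bases, 2.74%, with Ccl25, and had 3246 to 4732 counts per library.

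Cx3cl1, which is made by epithelium, neurons and endothelium and holds CX3CR1-bearing macrophages, stood at 76.9, 99.0, 123, 136 and 76.6 CPM in the wildtype, at 103, 107, 102, 101 and 96.3 in the knockout and at 65.7, 84.1, 83.6, 75.8 and 94.6 in C362A. All C362A libraries were below all knockout libraries, and the wildtype spanned both. The log2 fold change was -0.34 against the wildtype (SE 0.14, adjusted p = 0.290, edgeR) and -0.33 against the knockout (SE 0.14, adjusted p = 0.325).

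The levels of Ccl25 and Cx3cl1 moved with the summed level of 12 intestinal epithelium markers, which was 8539 to 16246 CPM in the wildtype, 10508 to 12375 in the knockout and 7625 to 11688 in C362A. The sum was lowest in C362A library 1 and highest in wildtype library 4. Between these, Fabp1 stood at 1166 and 4066 CPM and Fabp2 at 485 and 3276. Epcam stood at 905 and 891 CPM there and Cdx2 at 276 and 289. The sum is therefore no plain measure of the amount of epithelium. None of the 12 markers was called in C362A against wildtype, and the log2 fold change of each was below 0. Before adjustment, 5 of the 12 were lower and 0 higher with a p under 0.05, beside 7.8% and 8.08% of all genes. Without C362A library 5, Fabp1 and Fabp2 were called lower, in a fit that called 9.76% of all genes tested. Over 15 libraries, with log2(CPM + 0.1) of the member, the correlation with this sum was r = 0.956 and rho = 0.957 for Ccl25 and r = 0.969 and rho = 0.946 for Cx3cl1. The permutation p was 1e-05 for each of these, the smallest that 100000 permutations can give, and 0.00044 adjusted over 88 relations of a member with a marker list. Without the 2 libraries farthest from the median of the sum, r was 0.960 and 0.951, and with each group's mean removed it was 0.944 and 0.955. All values are shares of 1 library total, so a rise in one part lowers the others; r of Ccl25 with 9 mesenchyme markers was -0.820 (rho = -0.768, permutation p = 0.00027 and 0.00116, adjusted 0.00792 and 0.0248), and -0.757 without the 2 farthest libraries. The part of epithelium in the differences between genotypes was not tested.

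**Figure D4:**
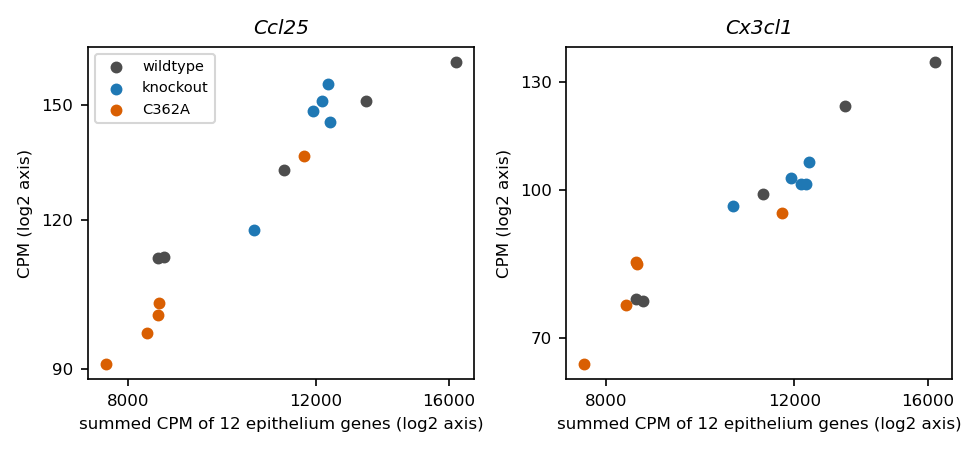
CPM of Ccl25 and Cx3cl1 against the summed CPM of 12 intestinal epithelium markers, 1 point per library, both axes on a log2 scale. Points of the 3 genotypes lie along 1 band for both genes, and C362A library 5, at a sum of 11688 CPM, lies apart from the other C362A libraries.

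The other epithelial members, Ccl20, Ccl27a and Ccl28, were not called. Ccl20, which attracts CCR6-bearing lymphoid cells, lay between 0.810 and 2.26 CPM in the wildtype, 1.36 and 1.87 in the knockout and 1.44 and 1.95 in C362A. Ccl28, an attractant of CCR10-bearing plasma cells, lay between 1.73 and 5.10 CPM, 1.56 and 2.94, and 1.59 and 3.66 in the same order. For Ccl27a the ranges were 0.434 to 0.883, 0.239 to 0.598 and 0.342 to 0.749 CPM. Xcl1, the lymphotactin of NK and T cells, ranged from 0.208 to 0.981 CPM over all libraries and overlapped between genotypes. Gm20743 on the opposite strand shares 98 exonic bases, 18.7%, with Xcl1, and had at most 10 counts in a library.

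Of the homeostatic and other CXC members, Cxcl13 differed most in C362A. It stood at 21.4, 29.2, 23.7, 25.4 and 27.2 CPM in the wildtype, at 25.9, 27.3, 36.1, 40.2 and 24.9 in the knockout and at 46.5, 32.7, 46.3, 43.5 and 27.3 in C362A. In C362A, 4 of 5 libraries were above every wildtype library. The log2 fold change was 0.63 (SE 0.16, interval 0.29 to 0.97, adjusted p = 0.285, edgeR). It passed without C362A library 5 (0.74, adjusted p = 0.0187) and with the run of sample IDs as a block (0.61, adjusted p = 0.0387).

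Cxcl12, which guides CXCR4-bearing progenitors, lay between 93.4 and 183 CPM in the wildtype, 95.6 and 150 in the knockout and 112 and 157 in C362A, and overlapped throughout. Cxcl16, a membrane-bound ligand of CXCR6, lay between 9.73 and 15.6 CPM in the wildtype, 13.1 and 15.6 in the knockout and 14.0 and 14.9 in 4 of the C362A libraries, with library 5 at 24.4. Zmynd15 on the opposite strand shares 552 exonic bases, 18.3%, with Cxcl16, and was also highest in C362A library 5, at 6.5 CPM against 2.31 to 4.18 in the other 14 libraries. Pf4 lay between 4.40 and 7.52 CPM over all libraries and Cxcl14 between 5.68 and 10.8, both overlapping between genotypes. Cxcl15 was the sole gene grouped here with the CXCR2 ligands that reached the minimum, and none of Cxcl1, Cxcl2, Cxcl3 and Cxcl5 did. It stood at 0.145, 0.494, 0.298, 0.261 and 0.213 CPM in the wildtype, at 0.506, 0.571, 0.239, 0.125 and 0.312 in the knockout and at 0.156, 0.135, 0.271, 0.145 and 0.419 in C362A. Those ranges overlapped, on at most 21 counts in a library.

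**Figure D5:**
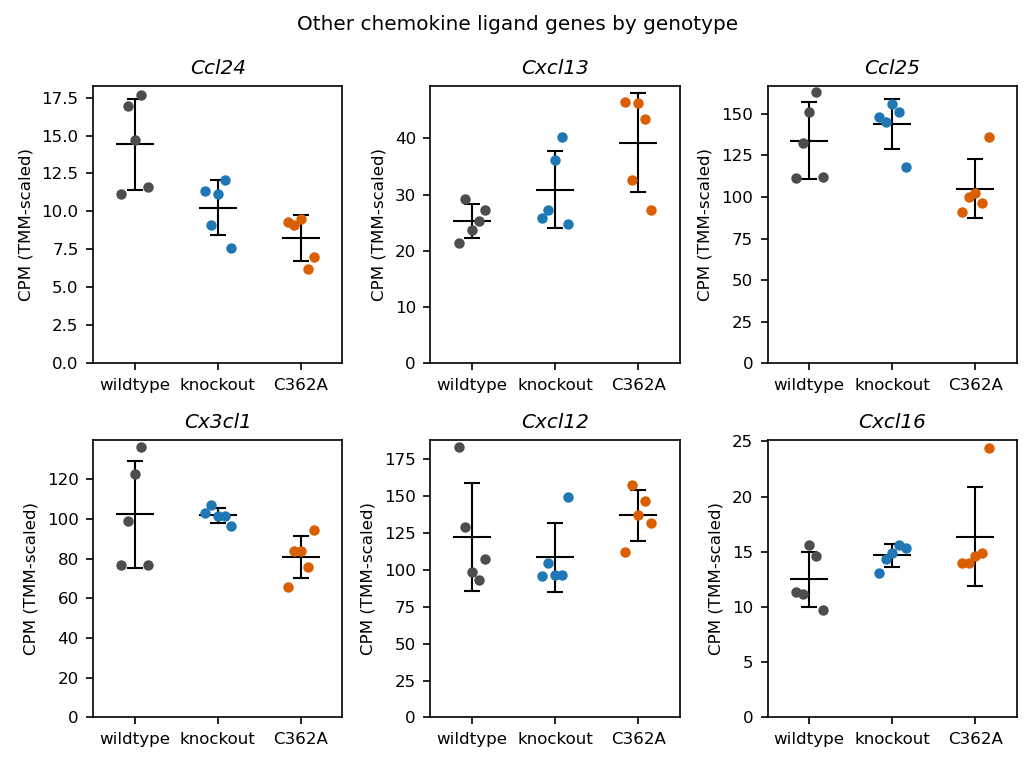
TMM-scaled CPM of Ccl24, Cxcl13, Ccl25, Cx3cl1, Cxcl12 and Cxcl16 by genotype, 1 point per library, with the mean and SD of 5 libraries. All C362A points of Ccl24 lie below the wildtype points, and C362A library 5 lies above the other C362A points for Ccl25, Cx3cl1 and Cxcl16.

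Of 23 listed chemokine receptor genes, 18 were tested and 0 were called in any comparison by edgeR, DESeq2 or limma-voom with all libraries. Without C362A library 5, edgeR called Cx3cr1 higher and the scavenging receptor gene Ackr4 lower in C362A against wildtype, among 18 tested. That fit called 9.76% of all genes tested. In C362A against wildtype, 3 of 18 were higher and 1 lower with a p under 0.05 before adjustment, beside 8.08% and 7.8% of all genes tested. Cxcr4, the receptor of Cxcl12, stood at means of 13.0 CPM in C362A and 10.5 in the wildtype (log2 0.30, SE 0.10, adjusted p = 0.285, edgeR). Cxcr3, the receptor of Cxcl10, stood at means of 0.672 CPM in C362A, 0.688 in the knockout and 0.771 in the wildtype. Ccr2, the receptor of Ccl12, stood at 6.06, 4.68 and 5.52 CPM in the same order.

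Of 26 genes of interferon and NF-kB signalling, 21 were tested and 0 were called by edgeR, while 5 higher and 1 lower in C362A against wildtype had a p under 0.05 before adjustment, beside 8.08% and 7.8% of all genes tested. Ifnb1, Ifnl2 and Ifnl3 had no count in any library, Ifng at most 3 and Tnf at most 17. The smallest p belonged to the NF-kB inhibitor genes Nfkbia (41.3 CPM in C362A, 31.0 in the wildtype, log2 0.41, SE 0.09, adjusted p = 0.200) and Nfkbie (8.5 and 6.23 CPM, log2 0.45, SE 0.11, adjusted p = 0.246). All C362A libraries were above all wildtype libraries for both, and DESeq2 called both, as did edgeR without C362A library 5. DESeq2 called 2 of the 21, beside 0.294% of all genes. The edgeR fit without that library called 3 of the 21, beside 9.76% of all genes. For 8 transcription factor genes of the interferon signal, the median log2 fold change of C362A against wildtype was -0.16, with 2 above 0. Over all genes tested that median was 0.01, with 51.4% above 0. In knockout against wildtype the median of the 8 was 0.06, with 7 above 0. All genes tested had a median of -0.0045 there, with 48.2% above 0.

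Markers of cell types that make or follow chemokines were measured beside these results. The 15 macrophage and monocyte markers summed to 255 to 436 CPM in the wildtype, 316 to 402 in the knockout and 306 to 392 in C362A, with 12 of 15 above 0 in C362A against wildtype and Adgre1 called higher (14.3 against 8.52 CPM, log2 0.75, SE 0.13, adjusted p = 0.0361, edgeR). DESeq2 also called Adgre1 and limma-voom did not, and edgeR called it in 4 of 15 fits that left out 1 library. The other 3 markers were below 0, and Cd163 stood at 0.472 CPM in C362A against 1.16 in the wildtype. Before adjustment, 5 of 15 were higher and 1 lower with a p under 0.05, beside 8.08% and 7.8% of all genes. Without C362A library 5, edgeR called 2 higher and 1 lower (Adgre1, Cd163 and Lyz2), beside 9.76% of all genes. The 12 neutrophil markers summed to 20.5 to 57.2, 37.7 to 98.0 and 49.8 to 128.6 CPM. Mmp9 was called higher in C362A (37.0 CPM, adjusted p = 0.00201) and in the knockout (31.6 CPM, adjusted p = 0.0276) against the wildtype (15.8 CPM), and in 15 and 7 of 15 fits that left out 1 library. Over all genes tested, edgeR called 0.0817% in C362A against wildtype and 0.0381% in knockout against wildtype.

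The 12 T, NK and innate lymphoid markers summed to 150 to 179, 150 to 177 and 161 to 171 CPM, with Il2rg called higher in C362A (11.5 against 6.80 CPM, adjusted p = 0.0201, called in 9 of 15 such fits). The 10 endothelium markers summed to 364 to 448, 372 to 524 and 431 to 526 CPM, with Madcam1, the gut addressin, called higher in C362A (23.1 against 14.8 CPM, adjusted p = 0.0431, called in 3 of 15). Before adjustment, 7 of these 10 were higher and 1 lower with a p under 0.05, beside 8.08% and 7.8% of all genes. The calls of Il2rg and Madcam1 stand beside 0.0817% of all genes called by edgeR in C362A against wildtype. Mesenchyme markers summed to 6438 to 8865, 7229 to 9741 and 7424 to 10398 CPM, and none of those 9 was called. All 9 were above 0 in C362A against wildtype, 4 with an unadjusted p under 0.05, beside 8.08% of all genes. Without C362A library 5, edgeR called Acta2 and Col3a1, and of endothelium Cdh5, Madcam1, Pecam1 and Vcam1, each higher. That fit called 9.76% of all genes. Over 15 libraries the correlation with the macrophage sum was r = 0.310 and rho = 0.282 for Cxcl10 (permutation p = 0.260 and 0.308, adjusted 0.416 and 0.484) and r = 0.0822 and rho = -0.0214 for Ccl12 (permutation p = 0.772 and 0.943, adjusted 0.839 and 0.954). Without the 2 libraries farthest from the median of that sum, r was -0.116 and -0.323. The macrophage sum weights each marker by its level, and its markers differed in direction. Csf1r ranged from 54.0 to 128 CPM within the wildtype, with means of 71.3 in C362A and 84.3 in the wildtype. C1qa had means of 35.0 and 28.5 CPM in the same order. Relations of Cxcl10 and Ccl12 with single markers were not tested. With the endothelium sum, Cxcl10 had r = 0.627 and rho = 0.661 (permutation p = 0.0144 and 0.0094, adjusted 0.0842 and 0.0689) and Ccl12 r = 0.432 and rho = 0.557 (permutation p = 0.110 and 0.0342, adjusted 0.257 and 0.131), and r without the 2 farthest libraries was 0.654 and 0.375. With the mesenchyme sum, Cxcl10 had r = 0.627 and rho = 0.650 (permutation p = 0.0153 and 0.011, adjusted 0.0842 and 0.0691) and Ccl12 r = 0.472 and rho = 0.504 (permutation p = 0.0771 and 0.059, adjusted 0.212 and 0.167), and r without the 2 farthest was 0.495 and 0.443. With each group's mean removed, r of Cxcl10 was 0.142 with endothelium and 0.288 with mesenchyme, and r of Ccl12 was -0.208 and 0.0161. The part of these cell types in the Cxcl10 and Ccl12 differences was not tested.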

How the data were processed

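Column-purified, DNase-treated polyA RNA was made into libraries with a TruSeq v2 kit, which does not mark strand, and sequenced as single-end reads, per the labels' protocols. Reads were aligned with GSNAP to GRCm38, per the submitters' processing notes. The sources used here do not give the aligner's settings or the annotation. The deposited counts are uniquely aligned reads per gene model and the deposited RPKM values are adjusted by a size factor per library, per the file headers. Unique alignment can lower the counts of near-identical genes.

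From the counts, 18370 of 36528 genes passed edgeR's filter (minimum count 10, minimum total 15). All 15 libraries entered 1 quasi-likelihood fit with TMM factors and robust estimates (edgeR 4.0.16, limma 3.58.1, DESeq2 1.42.0, R 4.3.3), checked on simulated data. P-values were adjusted by Benjamini and Hochberg over all genes tested. CPM values are TMM-scaled, and SE and intervals of log2 fold changes come from the fit. Names and positions are from RefSeq (GRCm38.p6) by gene ID, and exon overlaps from GENCODE M21.

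The members, gene lists and tests were chosen with earlier results of these data known. Values in every library are given for Cxcl10, Ccl12, called members and, per receptor group, the members with the smallest p and the highest RPKM. Cxcl9 was given likewise after its values were seen, as were fold changes of Ccl7. Receptors, regulators and marker lists are named by their called members or the 2 smallest p; other members of those lists were named after their values were seen, and 1 receptor gene is not reported here. Alternatives were other scalings, filters, tests, covariates and groups in the fit, RPKM on a log2 scale with a pseudocount, a stricter threshold and leaving out each library.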

Additional observations from a re-analysis of the deposited data

Results flagged for a closer look

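For each of the 22 members, the 5 libraries of each genotype were checked for a library far from the other 4 by Dixon's ratio, 66 checks in all, and 6 were past the 95% limit of 0.71. Chance alone passes about 1 in 20 such groups. Ccl12 in C362A library 4 was low, at 0.753 CPM with the next library at 1.20. Ccl25 was low in knockout library 5, at 117.8 CPM with the next at 145.2, and high in C362A library 5, at 136.0 CPM with the next at 102.3. Cxcl12 in knockout library 5 was high, at 149.8 CPM with the next at 104.9. Cxcl16 in C362A library 5 was high, at 24.4 CPM with the next at 14.9. Ccl27a in knockout library 3 was low, at 0.239 CPM on 9 counts, with the next at 0.547.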

How the results depend on the processing

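The count of members called in C362A against wildtype was 2, and 1 at a threshold of 0.01, with only the 2 groups compared in the fit, and with Y-linked expression as a covariate, and 3 by DESeq2 and with the run of sample IDs as a block. In knockout against wildtype it was 1, and 0 at 0.01, 0 with only the 2 groups, 2 by DESeq2 and 2 by limma on log2(RPKM + 0.1). In C362A against knockout it was 0, and 1 by DESeq2, by limma-voom and by limma on log2(RPKM + 1) or log2(RPKM + 0.1). Leaving out each library gave 1 to 5, 0 to 1 and 0 to 2 called members in the 3 comparisons. Cxcl10 in C362A against wildtype was called under each of 27 alternatives, with log2 fold changes of 1.53 to 2.65. In knockout against wildtype it was called in 25 of 27, and Ccl12 in C362A against wildtype in 21 of 27. With only the 2 groups, their adjusted p were 0.0557 and 0.0507. Some signs turned. In knockout against wildtype, Cx3cl1 was 0.033 by limma-voom, 0.030 by limma on log2(RPKM + 1) and 0.032 on log2(RPKM + 0.1), against -0.0059 in the edgeR fit. Leaving out each library gave ranges across 0 in C362A against wildtype for Ccl6 (-0.56 to 0.04) and Cxcl14 (-0.02 to 0.19), in knockout against wildtype for Ccl2 (-0.050 to 0.265), Ccl5 (-0.083 to 0.153), Cx3cl1 (-0.094 to 0.118), Cxcl12 (-0.317 to 0.018), Cxcl14 (-0.05 to 0.13), Pf4 (-0.03 to 0.14) and Xcl1 (-0.29 to 0.37), and in C362A against knockout for Ccl7 (-0.527 to 0.011), Cxcl16 (-0.029 to 0.211), Ccl20 (-0.06 to 0.05), Ccl27a (-0.28 to 0.03), Ccl28 (-0.09 to 0.25) and Cxcl14 (-0.06 to 0.15). The cause of these changes was not tested. No paired analysis was possible because the labels give no replicate numbers. Depth limits the members under 1 CPM, which rest on few reads.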
